A study of Mus musculus with 6 samples.

Results

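A set of 10 genes that mouse liver normally expresses before birth and silences afterwards, or that carry a parental imprint, was followed by RNA-seq of livers from 3 wild-type (p62+/+) and 3 heterozygous p62S351E/+ animals at P19 (postnatal day 19). The 10 genes, out of 24411 in the count table, were H19, Igf2, Afp, Dlk1, Meg3, Gpc3, Peg3, Plagl1, Cdkn1c and Cd24a. They were selected on their names with the H19 counts of these same libraries already known, so their genotype values are given as a description with no test. H19 lay higher in every p62S351E/+ liver than in any p62+/+ liver, Gpc3 was the one other gene of the 10 whose profile resembled it, and Afp was close to absent throughout.

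Imprinted genes are transcribed from 1 parental chromosome, chosen by DNA methylation set in the germ line. H19, a maternally expressed long noncoding RNA, and Igf2, a paternally expressed growth factor gene, use the same downstream enhancers, and CTCF bound between them keeps these enhancers from Igf2 on the maternal chromosome. Afp, H19 and Gpc3 are abundant in fetal liver and shut down in the weeks after birth, and Zhx2, Zfhx3 and Zbtb20 are known repressors of one or more of them.

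The p62S351E/+ mice carry 1 Sqstm1 allele, the gene of the autophagy receptor p62, with Glu in place of Ser351 to mimic phosphorylation. The allele was made by prime editing in C57BL/6N embryonic stem cells, and heterozygotes came from the sperm of 1 chimeric male, so the line goes back to 1 edited clone. According to the study's description these mice grew poorly and were undernourished, whereas the p62+/+ controls carry no edit. Genotype and nutritional state therefore cannot be told apart in these livers, and neither a sex nor a sequencing batch is given in the labels.

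Each library held 8696712 to 10341622 expected counts, the RSEM estimate of reads per gene, but only 134911 to 315436 of them (1.30% to 3.30%) fell outside 3 genes, Rn45s, Lars2 and Mir6236. The 10 hepatocyte markers were all detected, with sums of 10303 to 24821. Libraries of p62S351E/+ mice 1 and 2 stood apart from the other 4. The sum of 12 brain markers was 20 and 36 in them against 2610 to 3012 elsewhere, and Xist, the RNA that coats the silenced X chromosome in females, stood at 1 and 0 counts against 70.8 to 1537. Sqstm1 had 97, 94 and 100 raw counts in wild-type livers against 55, 77 and 116 in p62S351E/+ mice. The relative library sizes used for scaling were 1.25, 1.29 and 1.16 against 0.525, 0.794 and 1.29. The raw Sqstm1 counts therefore do not rank the genotypes. The edit changes 1 codon, so Sqstm1 counts do not check the genotype labels. In whole liver, fewer cells of a type and less RNA per cell cannot be told apart.

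H19 lies on the minus strand of chromosome 7 of GRCm38 (the build of mm10) from 142575529 to 142578143 and is annotated as a lincRNA. The first of the 5 exons of its transcript H19-202, 142576829 to 142578143, holds the hairpin of miR-675, a microRNA that is processed from H19 RNA. The hairpin and both mature microRNAs are shown because they are the part of H19 with a known processed product. Capitals mark the mature arms in the hairpin (chr7:142577064-142577147, minus strand) and the seed, bases 2 to 8, in each mature form (RefSeq, GRCm38.p6, 5′ to 3′).
miR-675 hairpin: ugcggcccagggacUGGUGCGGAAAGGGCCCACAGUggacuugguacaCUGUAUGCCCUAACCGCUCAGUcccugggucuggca
mmu-miR-675-5p: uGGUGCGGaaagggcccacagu
mmu-miR-675-3p: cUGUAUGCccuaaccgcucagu
The 2 arms have different seeds. The separate Mir675 row had 0 counts in all 6 libraries, so a rise or fall of the microRNA could not be seen here.

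H19 had 7, 13 and 9 counts in wild-type livers against 164, 43 and 65 counts in p62S351E/+ mice. The groups did not overlap, and mouse 1, which has the smallest number of usable counts, was the highest. After TMM scaling (counts divided by each library's effective size, called normalized counts below) the values were 5.62, 10.1 and 7.77 against 312, 54.2 and 50.4. The means were 7.83 ± 2.24 and 139 ± 150 normalized counts (SD, n = 3 each), a ratio of 17.7. The fitted log2 fold change was 4.11 (SE 0.89), and it was 2.73 without p62S351E/+ mouse 1. The ratio of the pooled counts was 13.3, with a 95% interval of 9.03 to 20.2 that covers counting error only. With p62S351E/+ mice 1 and 2 both left out, mouse 3 alone gave a log2 fold change of 2.68. In mouse 3, whose brain marker sum was near those of the controls, H19 thus also lay above every p62+/+ value. The Xist count of mouse 3 was 1537, against 70.8, 1505 and 1071 in p62+/+ mice, which differ among themselves.

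H19 was also set against markers of the cells that can express it. Per 10000 counts of the 10 hepatocyte markers of the same library, H19 had 3.95, 7.94 and 5.66 counts in wild-type livers against 159, 17.3 and 36.3 in p62S351E/+ mice, again without overlap. H19 is also a gene of developing skeletal muscle. The 10 muscle markers summed to 8, 7 and 4 counts in wild-type livers and to 0, 1 and 56 in p62S351E/+ mice. Ttn made up 39 of the 56, and the other 9 markers had 17 counts in that library against 0 to 6 in the rest. The part of muscle RNA in the H19 count of p62S351E/+ mouse 3 was not tested.

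Igf2, the paternally expressed partner of H19, lies 72.6 kb from it (7:142650766-142666816). It had 6, 5 and 1 counts in wild-type livers against 2, 2 and 10 in p62S351E/+ mice. The groups overlapped, and p62S351E/+ mouse 1 had 2 counts of Igf2 beside its 164 of H19. The ratio of pooled counts was 1.65 with a counting interval of 0.709 to 3.91, which spans both a lower and a severalfold higher level of Igf2, so no difference was detectable at this depth.

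Cdkn1c encodes the cyclin-dependent kinase inhibitor p57Kip2 and is expressed from the maternal chromosome in the neighbouring imprinted domain (7:143458339-143461050), 880.2 kb from H19. It had 3, 2 and 4 counts in wild-type livers against 4, 3 and 10 in p62S351E/+ mice. The raw counts overlapped, whereas the normalized counts did not, at 2.41, 1.55 and 3.45 against 7.62, 3.78 and 7.75. Per 10000 hepatocyte marker counts the groups overlapped again, at 1.22 to 2.51 and 1.21 to 5.58. The order of the Cdkn1c groups thus depended on the scaling.

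**Figure D1:**
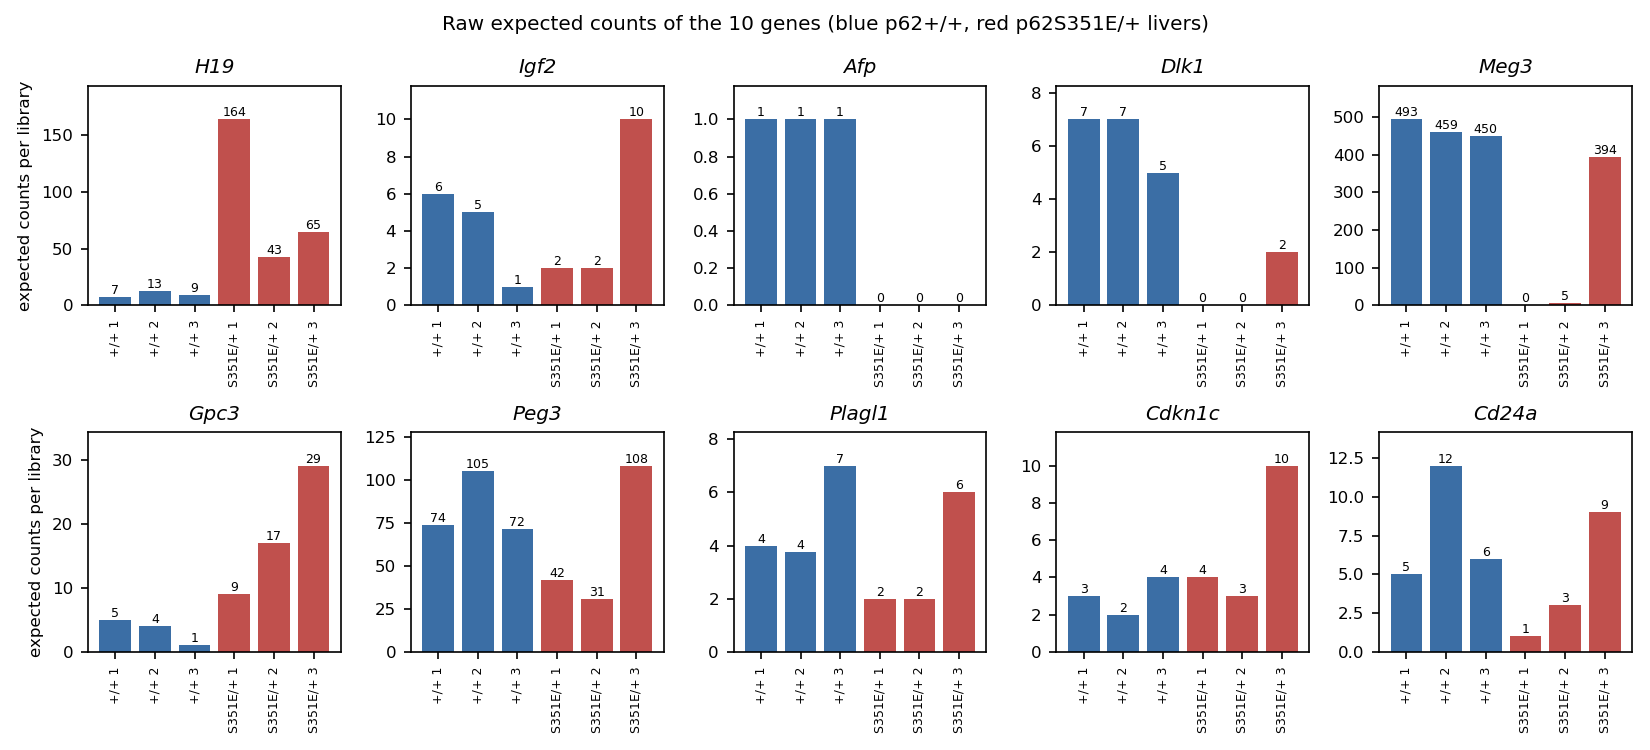
Raw expected counts of each of the 10 genes (y axis, a separate scale for each gene) in the 3 p62+/+ (blue) and 3 p62S351E/+ (red) livers, rounded in the labels above the bars. H19 reaches 43 to 164 in p62S351E/+ mice against 7 to 13, Gpc3 reaches 9 to 29 against 1 to 5, and Meg3 is at 0 and 5 in p62S351E/+ mice 1 and 2 and at 394 in mouse 3.

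Dlk1 and Meg3 share an imprinted domain on chromosome 12, with opposite parental origin, like Igf2 and H19. Meg3 is a maternally expressed long noncoding RNA that is also abundant in brain (12:109541001-109571726). It had 493, 459 and 450 counts in wild-type livers against 0, 5 and 394 in p62S351E/+ mice. The 2 libraries with few brain markers were at or near 0, and mouse 3 lay closer to but still below the p62+/+ mice, at 305 normalized counts against 356 to 396. The normalized means were 380 ± 21.1 and 104 ± 174 (SD, n = 3 each), and the log2 fold change of -1.85 (SE 1.70) became -6.67 without p62S351E/+ mouse 3 and -0.31 with mouse 3 alone.

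Dlk1, the paternally expressed gene of this domain, encodes a transmembrane relative of the Notch ligands made by fetal hepatoblasts (12:109452823-109463336). It had 7, 7 and 5 counts in wild-type livers against 0, 0 and 2 in p62S351E/+ mice. No p62S351E/+ count reached a p62+/+ count. A 0 in mouse 1, the shallowest library, allows up to 5.71 normalized counts, above the p62+/+ values of 4.32 to 5.62, so that library alone does not show a lower level. The ratio of pooled counts was 0.149 (counting interval 0.0168 to 0.617, from 2 counts in the p62S351E/+ group). The 2 zeros came from the libraries with few brain markers, and the part of those transcripts in the Dlk1 counts was not tested.

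Peg3 and Plagl1 encode zinc-finger transcription factors expressed from the paternal chromosome. Peg3 (7:6703892-6730431) had 73.9, 105 and 71.7 counts in wild-type livers against 42, 30.7 and 108 in p62S351E/+ mice. The normalized groups overlapped, and their means of 67.6 ± 12.1 and 67.5 ± 25.0 (SD, n = 3 each) gave a log2 fold change of -0.003 (SE 0.31). With library size as the only scaling that value was -0.61, while the median of all genes moved from -0.03 to -0.68. Plagl1 (10:13060504-13131694) had 4, 3.74 and 7 counts in wild-type livers against 2, 2 and 6 in p62S351E/+ mice, which also overlapped.

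Gpc3, Afp and Cd24a are not imprinted. Gpc3 encodes glypican-3, a heparan sulfate proteoglycan of the cell surface that restrains growth, and lies on the X chromosome (X:52272426-52613950). Afp encodes alpha-fetoprotein, the albumin-like plasma protein of the fetus. The promoters of Gpc3 and Afp are shown because the 2 genes are both classic fetal liver genes. Gpc3 was higher alongside H19, while Afp had too few counts to judge. Each runs from 250 bases before to 50 bases after the start (RefSeq, GRCm38.p6, 5′ to 3′). Capitals mark CpG dinucleotides in Gpc3 (chrX:52613925-52614224, minus strand) and the letters TATAAA in Afp (chr5:90490464-90490763, plus strand).
Gpc3 promoter: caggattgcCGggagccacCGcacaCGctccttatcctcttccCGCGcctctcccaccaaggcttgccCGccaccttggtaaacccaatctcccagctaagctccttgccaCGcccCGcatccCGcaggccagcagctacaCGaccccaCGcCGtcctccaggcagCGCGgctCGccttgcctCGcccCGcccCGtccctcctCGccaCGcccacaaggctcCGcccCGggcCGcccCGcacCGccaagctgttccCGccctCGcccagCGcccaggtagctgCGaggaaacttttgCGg
Afp promoter: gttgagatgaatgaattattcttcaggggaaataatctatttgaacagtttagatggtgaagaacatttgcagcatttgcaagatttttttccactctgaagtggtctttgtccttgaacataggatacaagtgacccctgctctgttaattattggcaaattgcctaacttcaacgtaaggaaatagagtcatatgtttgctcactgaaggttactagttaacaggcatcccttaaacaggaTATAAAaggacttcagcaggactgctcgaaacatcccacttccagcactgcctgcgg
The Gpc3 window holds 30 CpG dinucleotides and the Afp window 3, where the median over 32851 promoters was 7 with quartiles of 3 and 20. TATAAA, searched on both strands, was found in 13.6% of those promoters, once in the Afp window and not in that of Gpc3. Of the 10 genes, 7 had promoters in the RefSeq table. A link between these promoter features and the counts of the genes was not tested.

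Gpc3 had 5, 4 and 1 counts in wild-type livers against 9, 17 and 29 in p62S351E/+ mice. The groups did not overlap in raw counts, and normalized counts of 4.01, 3.11 and 0.864 stood against 17.1, 21.4 and 22.5. Scaling brought the 3 p62S351E/+ mice close together, in contrast to H19. The means were 2.66 ± 1.62 and 20.3 ± 2.82 normalized counts (SD, n = 3 each), a ratio of 7.64, and the ratio of pooled counts was 7.78 (counting interval 3.93 to 17.1). Gpc3 was under the filter on low counts, and a fit without that filter gave a log2 fold change of 2.85 (SE 0.48). Gpc3 is X-linked, and its normalized count was 17.1 and 21.4 in the libraries with 1 and 0 counts of Xist and 22.5 in the one with 1537. The part of sex in the Gpc3 values was not tested.

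Afp (5:90490737-90508907) had 1 count in each p62+/+ mouse and 0 in each p62S351E/+ mouse. A count of 0 allows up to 3 counts in a library, so no difference was detectable at this depth. Afp was thus at the limit of detection in both genotypes, including the p62S351E/+ libraries with the higher H19 and Gpc3 values. Cd24a (10:43578284-43584265) encodes a small cell-surface glycoprotein found on hepatic progenitor and bile duct cells and in other tissues. It had 5, 12 and 6 counts in wild-type livers against 1, 3 and 9 in p62S351E/+ mice, which overlapped. The normalized sums of 10 bile duct and progenitor markers also overlapped, at 30.5, 85.4 and 91.5 in wild-type livers and 74.3, 47.9 and 27.9 in p62S351E/+ livers. Spp1 made up most of these sums, and the other 9 markers together had 14, 16 and 20 raw counts against 5, 16 and 15.

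In all, the normalized p62S351E/+ values lay above every p62+/+ value for 3 of the 10 genes (H19, Gpc3 and Cdkn1c), below every one for 3 (Afp, Dlk1 and Meg3, of which Afp and Dlk1 cannot be placed below in every library given what a count of 0 allows) and overlapped for 4 (Igf2, Peg3, Plagl1 and Cd24a). Of 9754 genes with at least 20 counts over the 6 libraries, 9.58% lay above and 13.1% below in this way, and 9 of the 10 genes, all but Afp, had that many counts. Only H19, Meg3 and Peg3 passed the filter on low counts for the fit. Since the same contrast chose the genes, nothing is read from these counts.

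To ask which genes had the H19 pattern, the log2(normalized count + 1) of each gene was centred on its p62+/+ mean, and the root mean square difference between profiles was taken over the 6 libraries. A gene was said to share the pattern when it was nearer to H19 than to a flat profile and than to the summed brain markers, with p62S351E/+ values all above. Of the other members Gpc3 alone did so, with a difference of 1.25 log2 units from H19, 1.93 from flat and 4.97 from the brain markers. The share of all tested genes that meet this rule was not counted. The 10 tested genes nearest to H19, named below, lay closer to it than Gpc3, at 0.69 to 0.91. The likeness is thus not particular to Gpc3. Cdkn1c came next, 1.90 from H19, but was nearer to flat at 0.84. With a pseudocount of 5 in place of 1 no gene met the rule.

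Meg3 was the one gene nearest to the brain markers, at 1.11 log2 units, and it was the farthest of all from H19, at 6.69. Dlk1 was about as near to the brain markers (1.87) as to flat (1.59). Igf2, Afp, Peg3, Plagl1 and Cd24a were nearest to flat, at 0.34 to 0.73, and 2.41 to 3.19 from H19. H19 and its partner Igf2 thus did not have like profiles in these libraries. The nearness of Afp to flat follows from its counts of 1 or 0 per library. Its profile therefore could not be compared with that of Gpc3, the other classic fetal gene.

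**Figure D2:**
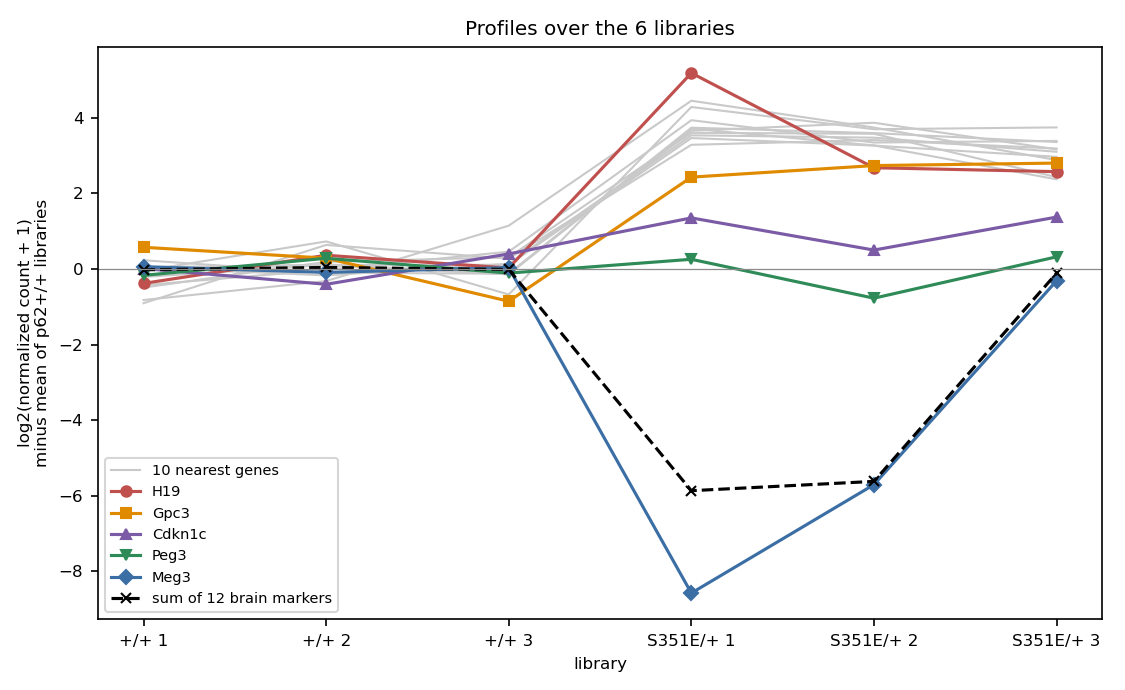
Log2(normalized count + 1) in each library (x axis) minus the mean of the 3 p62+/+ libraries (y axis, log2 units), for 5 of the genes, the summed brain markers (dashed) and the 10 tested genes nearest to H19 (grey). H19 and Gpc3 are up in all 3 p62S351E/+ libraries, and Meg3 follows the brain markers, down in libraries 1 and 2 and back near 0 in library 3.

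**Figure D3:**
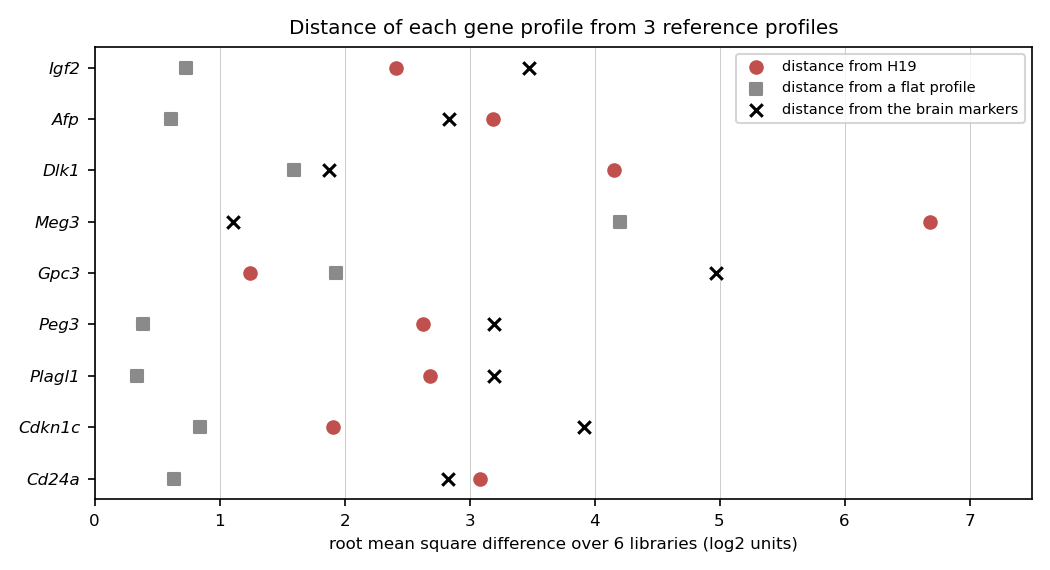
Root mean square difference (x axis, log2 units) of the profile of each of the other 9 genes (y axis) from that of H19 (circles), a flat profile (squares) and the summed brain markers (crosses). The circle is the leftmost symbol for Gpc3 only (1.25), and the cross for Meg3 only (1.11).

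Among all tested genes, the 10 nearest to H19 were Ugt2b35, Aox1, Ugt1a9, Abcc3, Nqo1, Abcc4, Ces1g, Cbr1, Gstm1 and Cyp2a5, at 0.69 to 0.91 log2 units. They encode UDP-glucuronosyltransferases, efflux transporters, and enzymes that oxidize, reduce, hydrolyse or conjugate xenobiotics, and none is an imprinted or fetal gene of the lists used here. Nqo1, Cbr1 and Gstm1 are listed targets of the transcription factor NRF2. The study reported higher expression of NRF2 targets in these livers. Aox1, an aldehyde oxidase gene, had 7, 10 and 13 counts in wild-type livers against 71, 71 and 119 in p62S351E/+ mice. Abcc3, an efflux transporter gene, had 23, 30 and 27 counts against 130, 171 and 226. As genes picked for resembling H19 in this contrast, their rise is fixed by the choice. Reads of Gstm1, Ugt1a9 and Cyp2a5 may be divided with near-identical paralogs.

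The remaining imprinted genes gave a wider view. Counts per gene do not separate the parental chromosomes, so whether each is imprinted in liver was not examined. Of 56 further imprinted genes, 25 were tested, and edgeR called none (adjusted p below 0.05 with a log2 fold change beyond 1 in size). Of all 5945 genes tested, 0.841% were called higher and 0.0841% lower. An unadjusted p below 0.05 was found for 6 of the 25, against 14.6% of all genes. DESeq2 and limma-voom each called 1 of them, Slc38a4, an amino acid transporter gene, and the median log2 fold change was -0.30 against -0.03 over all genes. Over all 5945 genes tested, DESeq2 called 90 higher and 15 lower, and limma-voom 131 and 12. None of the 25 profiles was nearest to H19, 21 were nearest to flat and 4 nearest to the brain markers. The 4 were Ndn, Snrpn, Rian and Nap1l5, well-known neuronal or brain-rich transcripts. Snrpn had 62, 60 and 60 counts in wild-type livers against 0, 1 and 41 in p62S351E/+ mice. Rian, a noncoding RNA of the Dlk1-Meg3 domain, had 61, 60 and 46 against 0, 2 and 43.

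In normalized counts, 3 of the 25 tested imprinted genes had p62S351E/+ values above all p62+/+ values and 9 had values below, where 12% and 14.7% of all 5945 tested genes did. The raw counts of Slc38a4 and Igf2r overlapped. The 3 were chosen here after their values were seen. Slc38a4 had 146, 161 and 118 counts against 138, 271 and 209 (log2 fold change 1.15, SE 0.29, adjusted p = 0.13, edgeR). Slc22a18, a maternally expressed transporter gene 12.7 kb from Cdkn1c, had 14, 16 and 15 counts against 17, 23 and 28 (1.16, SE 0.28, adjusted p = 0.119). Igf2r, the maternally expressed receptor that clears IGF2, had 16, 13 and 20 counts against 16, 19 and 27 (0.89, SE 0.31, adjusted p = 0.267). None passed the threshold, and each fold was smaller than that of Gpc3 or H19. Unlike Cdkn1c, the 3 were not scaled per hepatocyte marker count, so whether their groups stay apart on that scale was not tested. The normalized hepatocyte marker sums were 14229, 12711 and 13744 in wild-type livers against 19619, 31271 and 13875 in p62S351E/+ livers. Kcnq1ot1, the noncoding RNA of the Cdkn1c domain, had a log2 fold change of 0.09 (SE 0.23, adjusted p = 0.874).

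Of 28 other fetal liver genes, 9 were tested and edgeR called none, with 2 at an unadjusted p below 0.05 and 0 called by DESeq2 or limma-voom. With 14.6% of all genes at that p, these counts do not set the list apart. Their median log2 fold change was -0.86. Lin28a, Sall4, Spink1 and Trim71 had 0 counts in all 6 libraries. Lpl, the lipoprotein lipase gene, had the highest log2 fold change at 0.91 (SE 0.28, adjusted p = 0.224), followed by Igf2bp3, an RNA-binding protein gene of the fetus, at 0.86 (SE 0.43, adjusted p = 0.392). Scd2, a desaturase gene also high in brain, was at -1.74 (SE 1.35, adjusted p = 0.571), with normalized counts of 233 to 259 in wild-type livers against 8.40, 5.15 and 203 in p62S351E/+ mice. Of the blood genes, the embryonic globins Hbb-y, Hbb-bh1 and Hba-x had 0 counts in every library, and 0 of 7 tested erythroid genes were called by edgeR, DESeq2 or limma-voom, with 0 at an unadjusted p below 0.05.

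Both lists changed when p62S351E/+ mouse 3 was left out. Then 14 of 27 tested imprinted genes were called, 3 higher (Slc38a4, Slc22a18 and Smoc1) and 11 lower, and 6 of 9 fetal genes, 1 higher (Lpl) and 5 lower, where 20.4% of all genes were called. p62S351E/+ mouse 3 itself lay within the p62+/+ range for 2 of these 14 imprinted genes and 3 of these 6 fetal genes. Gnas, for example, had 251, 253 and 259 counts in wild-type livers and 35, 74 and 215 in p62S351E/+ livers. The part of the low brain markers of mice 1 and 2 in the lower calls was not tested.

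**Figure D4:**
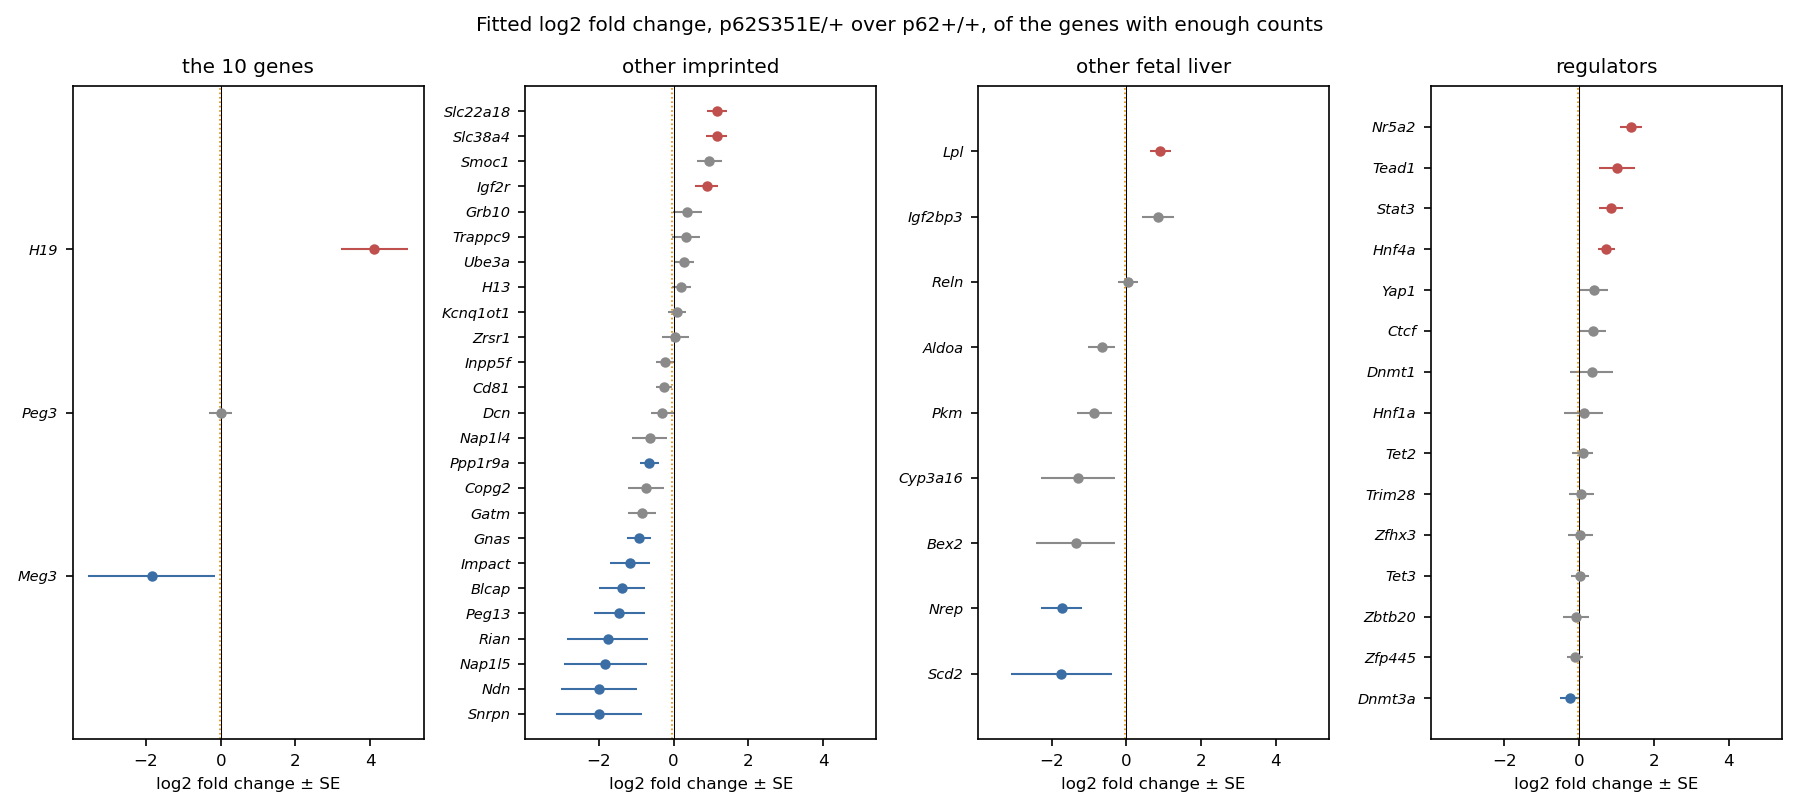
Fitted log2 fold change, p62S351E/+ over p62+/+, with its SE (x axis) for the tested genes among the 10, among other imprinted genes, other fetal liver genes and regulators (panels). Red marks genes with p62S351E/+ values all above and blue all below, grey marks overlap, and the dotted line is the median of all genes (-0.03). H19 at 4.11 stands to the right of every gene of the other panels.

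Genes that hepatocytes switch on after birth, the counterpart of this programme, differed among themselves. Of 20 such genes, 17 were tested and 13 had a log2 fold change above 0, as had 48% of all genes tested and 9 of the 10 hepatocyte markers. The median was 0.67, and it was 0.45 for the hepatocyte markers. By edgeR, 1 was called higher and 0 lower (0.841% and 0.0841% of all genes). Of the same 17, 9 had an unadjusted p below 0.05, against 14.6% of all genes, DESeq2 called 2 higher and 3 lower, and limma-voom 2 and 2. In normalized counts, 7 of the 17 lay above every p62+/+ value and 3 below, where 12% and 14.7% of all tested genes did. The 3 below were Ces3a, Cyp7a1 and Cyp3a11, which encode a carboxylesterase, the rate-limiting enzyme of bile acid synthesis and a drug-metabolizing cytochrome P450. Their log2 fold changes were -2.54 (SE 0.65, adjusted p = 0.191, edgeR), -1.72 (SE 0.36, adjusted p = 0.084) and -1.06 (SE 0.24, adjusted p = 0.109). Tdo2, the tryptophan-degrading dioxygenase gene, had 150, 130 and 142 counts in wild-type livers against 210, 379 and 371 in p62S351E/+ mice. Its normalized count rose from 115 ± 11.9 to 388 ± 95.6 (SD, n = 3 each), and the fitted log2 difference was 1.76 (SE 0.25, adjusted p = 0.0182, edgeR). The Tdo2 call was lost without p62+/+ mouse 1, 2 or 3, without p62S351E/+ mouse 1, under the replicate block (adjusted p = 0.11) and with library size only, while the value kept its sign at 1.03 to 1.93 over 18 alternatives (adjusted p from 1.04e-07 to 0.417).

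The known repressors of the fetal genes were present in both genotypes. Zhx2 had 2, 12 and 14 counts in wild-type livers against 3, 8 and 10 in p62S351E/+ mice, which overlapped and were too few to test. Zfhx3 had a log2 fold change of 0.02 (SE 0.33, adjusted p = 0.977, edgeR) and Zbtb20 of -0.09 (SE 0.34, adjusted p = 0.912). Of 24 regulators listed, 15 were tested and edgeR called none, with 3 at an unadjusted p below 0.05 (14.6% of all genes), 0 called by DESeq2 and 1 by limma-voom. In normalized counts, 4 of the 15 lay above every p62+/+ value and 1 below, where 12% and 14.7% of all tested genes did. Among the 4 was Nr5a2, a nuclear receptor gene and known activator of Afp, with 15, 13 and 13 counts against 19, 24 and 28. Nr5a2 missed the threshold (log2 fold change 1.38, SE 0.30, adjusted p = 0.0879).

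Of 18 genes of the IGF2 and DLK1 pathways, 15 were tested, and edgeR called 1 higher and 0 lower, with 7 at an unadjusted p below 0.05, against 0.841%, 0.0841% and 14.6% of all genes. DESeq2 called 2 higher and limma-voom 1. Igfbp2, which encodes a binding protein of the insulin-like growth factors, had 36, 30 and 53 counts in wild-type livers against 97, 123 and 128 in p62S351E/+ mice. Its normalized count rose from 32.7 ± 11.7 to 146 ± 43.4 (SD, n = 3 each), and the fitted log2 difference was 2.16 (SE 0.33, adjusted p = 0.0282, edgeR). The Igfbp2 call was lost without any one mouse except p62S351E/+ mouse 3, under the replicate block (adjusted p = 0.155), with the brain-marker covariate (0.0869) and with library size only, at values of 1.37 to 2.48 over 18 alternatives (adjusted p from 8.92e-06 to 0.417). Igfbp1, another binding protein gene, had 200, 81 and 31 counts against 275, 359 and 314, with a larger but less precise fold that did not pass (2.28, SE 0.68, adjusted p = 0.241). Igf1 and Igfals, the gene for the subunit that stabilizes circulating IGF complexes, had log2 fold changes of -0.91 (SE 0.25, adjusted p = 0.165) and -2.72 (SE 0.65, adjusted p = 0.121) and did not pass. The receptor gene Igf1r was at -0.49 (SE 0.48, adjusted p = 0.625).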

How the data were processed

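Liver RNA was depleted of ribosomal RNA and sequenced as 75-base single-end reads. The authors trimmed reads with Trim Galore, mapped them to mm10 with STAR and deposited expected counts per gene from RSEM, without normalization, as the study's methods and the submitters' processing notes give it. Versions are not given in the sources used here. Of the nonzero values, 6.45% were not whole, and all were rounded for testing. Groups came from the sample labels, which name 6 different mice.

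Genes passing filterByExpr (minimum count 10) were scaled by TMM and compared by edgeR 4.0.16 (quasi-likelihood test, legacy set to FALSE, robust) in R 4.3.3, with Benjamini-Hochberg adjustment over 5945 genes. Alternatives included DESeq2 1.42.0 and limma-voom (limma 3.58.1). Counting intervals are exact conditional 95% intervals of the ratio of pooled counts. The members and the gene lists were chosen with earlier results of these data known. Text names all 10 members, the 10 tested genes nearest to H19, called genes of each list, and Zhx2, Zfhx3, Zbtb20 and Sqstm1. Other genes were chosen after their values were seen. On simulated counts edgeR recovered 88.5% of 156 genes changed by a log2 fold of 2, and 2.82% of its 142 calls were false. The simulation gave all libraries the same mean profile and all genes the same spread. The real p62S351E/+ libraries differ among themselves, so these rates do not carry over to them. Positions are from GENCODE M21 (GRCm38).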

Additional observations from a re-analysis of the deposited data

How the results depend on the processing

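The 50 genes called higher and 5 called lower became 90 and 15 with DESeq2, 131 and 12 with limma-voom, 12 and 2 with library size only, 79 and 10 with no filter, 18 and 1 with the replicate number as a block, and 29 and 2 with the brain markers as a covariate. The lower calls were also 8 with the legacy quasi-likelihood method, 29 with at least 10 counts in every library and 23 with p62S351E/+ mice 1 and 2 left out. Leaving out 1 mouse gave 16 to 329 higher and 1 to 976 lower calls, the largest without p62S351E/+ mouse 3, 0 to 14 imprinted and 0 to 6 fetal calls. DESeq2 and limma-voom each called 1 imprinted gene. The causes were not tested.

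The H19 log2 fold change (4.11) stayed above 0 under every alternative that gave a value, between 2.58 and 4.52. It was 3.07 with library size only, 2.58 with the brain-marker covariate, 2.68 with p62S351E/+ mice 1 and 2 left out, 3.55 under the block, and 2.73 to 4.52 with 1 mouse left out. H19 had too few p62+/+ counts for the filter of 10 in every library. With a pseudocount of 5, 0 genes shared its profile in place of 1. The value of 3.60 per hepatocyte marker count, like that of 2.43 for Gpc3, was chosen after seeing the data. Same-numbered mice of both genotypes did not deviate together (correlations of 0.071, -0.085 and 0.0004 over genes). With so few mice, these values cannot show whether the numbers pair them. Depth limits most of the 10 genes, which had few counts in every library.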
